A study of Mus musculus with 8 samples.

Results

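The 8 genes described here encode the B class of Eph receptors and their ligands, which are *Ephb1*, *Ephb2*, *Ephb3*, *Ephb4* and *Ephb6* for the receptors and *Efnb1*, *Efnb2* and *Efnb3* for the ephrin-Bs. They were taken by gene symbol from a count table of 28432 genes, all 8 were found in it, and all 8 were among the 13891 genes expressed highly enough to be tested. RNA was sequenced from mouse retinas at E15.5, after the dams had been given tamoxifen by gavage at E11.5 (0.15 to 0.2 mg per gram of body weight), and each sample pooled both retinas of 1 embryo. The 4 control embryos were *Lhx2* flox/+ and the 4 CKO embryos *Lhx2* flox/KO, and all 8 carried 1 copy of *Hes1* CreERT2. By the paper's breeding scheme all embryos also carried 1 copy of a *Rosa* tdTomato reporter, and recombined embryos were picked by its fluorescence. The Cre was knocked into *Hes1*, so every embryo had 1 disrupted *Hes1* allele, recombination is driven wherever *Hes1* is expressed when tamoxifen is present, recombined control cells keep 1 *Lhx2* allele, and CKO embryos lacked 1 *Lhx2* allele in all tissues from the start. Where possible, embryos were first sorted by whether the eyes were small and then genotyped, and they came from 3 litters taken on 2 consecutive days. Which embryo came from which litter or day is not given in the labels, so embryos that share one could not be told from those that do not, and the tests treat all 8 as independent. The comparison asks how the loss of *Lhx2*, a LIM homeodomain transcription factor gene of retinal progenitor cells (RPCs), bears on the RNA of these genes.

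EphB receptors are receptor tyrosine kinases of the cell surface, and ephrin-Bs are transmembrane proteins that bind them on a neighboring cell. Contact signals into both cells, forward through the receptor and in reverse through the ephrin's cytoplasmic tail, and usually leads to repulsion, adhesion or the withdrawal of a growth cone. In the developing retina EphB receptors and ephrin-Bs are known for opposing dorsoventral patterns, EphB2 and EphB3 high in ventral and ephrin-B1 and ephrin-B2 high in dorsal retina, which help retinal ganglion cell (RGC) axons map in the brain, and EphB1 steers ventrotemporal axons away from the midline at the optic chiasm. EphB4 and ephrin-B2 are also known as a receptor and ligand pair that marks veins and arteries. Position within the retina cannot be read from whole-retina RNA, and in such bulk samples fewer cells of a type cannot be told apart from less RNA per cell.

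Total counts ran from 13143587 to 19099937 reads per sample, and intervals below are 95% intervals. Normalized counts are reads scaled for library size (DESeq2 size factors). RPC and RGC markers were abundant in all samples. The summed normalized counts of 14 RPC genes were 111659 to 124305 in controls and 67001 to 77244 in the CKO, and those of 21 RGC genes were 108338 to 123617 and 150392 to 162178. Of the 14 RPC genes 8 fell and 1 rose, and of the 21 RGC genes 12 rose (64.3% and 57.1% called, against 8.61% of all genes). Much of the lower RPC sum lay in *Ccnd1* (mean 45274 to 20135 normalized counts) and *Fgf15* (15277 to 2237). The RPC gene that rose was *Sfrp2* (5965 to 12398), and the other 5, among them *Pax6* and *Six3*, did not pass. The RPC sum is therefore no measure of the share of RPCs. Of markers of other tissue, none passed among 6 pericyte, 6 blood, 12 macrophage and 2 lens genes tested, 1 of 3 mesenchyme genes fell, and of 6 pigment epithelium genes 1 rose and 1 fell. The log2FC was below 0 for 5 of these 6 pigment epithelium genes (median -1.22). It was also below 0 for 11 of the macrophage, 5 of the blood, 2 of the pericyte and 1 of the lens genes. All 4 CKO samples lay below all controls for 2 pericyte genes and 1 macrophage gene, and above them for 1 lens gene. With 8.61% of all genes called, no call in so short a list says little about tissue content. The mesenchyme sum was 218 to 299.9 normalized counts in controls and 289 to 609 in the CKO. Within it the mean of *Pdgfra* went from 119 to 289 without passing, while *Col1a2* fell from 91.4 to 23.7. *Lhx2* itself had 3081 to 3631 normalized counts in controls and 2557 to 2868 in the CKO, but these reads include exons outside the deleted part and check neither the deletion nor the labels. By *Xist*, the transcript of X inactivation, 2 controls and 1 CKO were female (replicates 1 and 4, and replicate 1) and 2 controls and 3 CKO embryos were male. Control replicate 3 and CKO replicate 1 stood apart from the rest on the second principal component. In CKO replicate 1, sex cannot be told apart from whatever else sets that library apart.

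Of the 8 genes, *Ephb4* fell in the CKO, none rose, and 7 did not pass the test, which was edgeR's quasi-likelihood test at a Benjamini-Hochberg adjusted p below 0.001. In the same fit 8.61% of all genes passed, 4.97% lower and 3.64% higher, so 1 of 8 is close to the background. DESeq2, which called 17.2% of all genes, and limma voom, which called 8.44%, each also called 1 of the 8. At an unadjusted edgeR p below 0.05, which 43.6% of all genes reached, there were 3 lower and 2 higher. At an adjusted p below 0.05, which 33.3% of all genes passed, 5 of the 8 did: *Ephb1*, *Ephb3* and *Ephb4* with lower levels and *Efnb1* and *Efnb3* with higher levels. The log2FC (CKO over control) was below 0 for all 5 receptor genes and above 0 for all 3 ephrin-B genes, with a median of -0.06 over the 8 and 0.00529 over all genes tested. The signs of *Ephb2* and *Efnb2* turned in other fits, given with those genes. The 4 CKO samples lay wholly below the 4 controls for *Ephb1* and *Ephb4* and wholly above them for *Efnb1* and *Efnb3*, which was so in either direction for 33.8% of all genes.

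**Figure D1:**
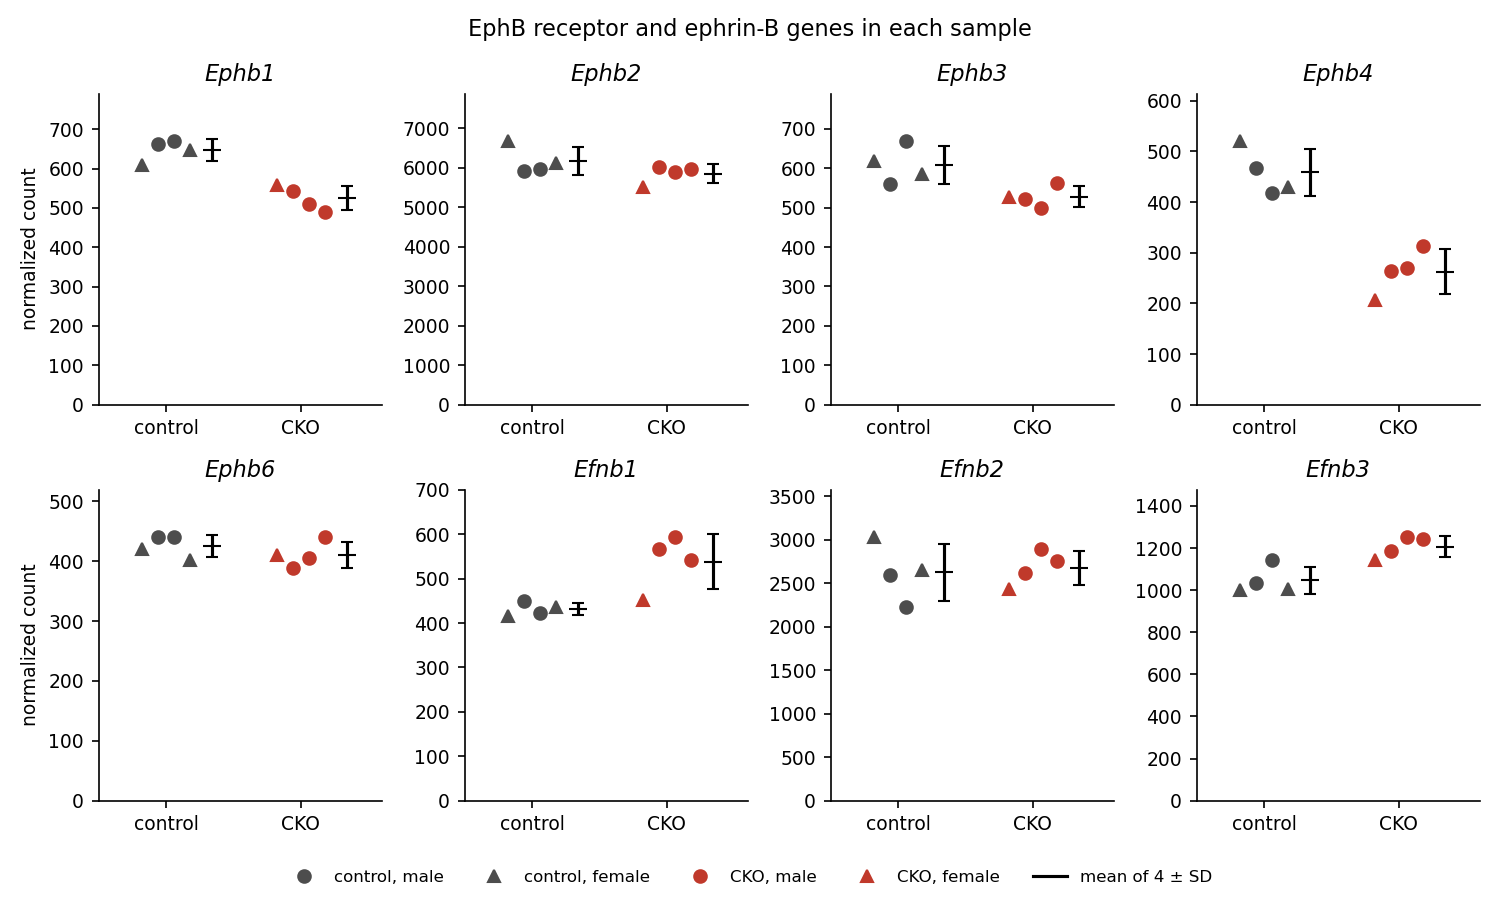
Normalized counts (y axis, from 0, one scale per gene) of the 8 genes in the 4 control samples (gray) and 4 CKO samples (red), with circles for male and triangles for female embryos and the mean ± SD of each group in black. The *Ephb4* points of the genotypes are far apart (418 to 521 in controls, 206 to 313 in the CKO), whereas those of *Ephb2*, *Ephb6* and *Efnb2* overlap.

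**Figure D2:**
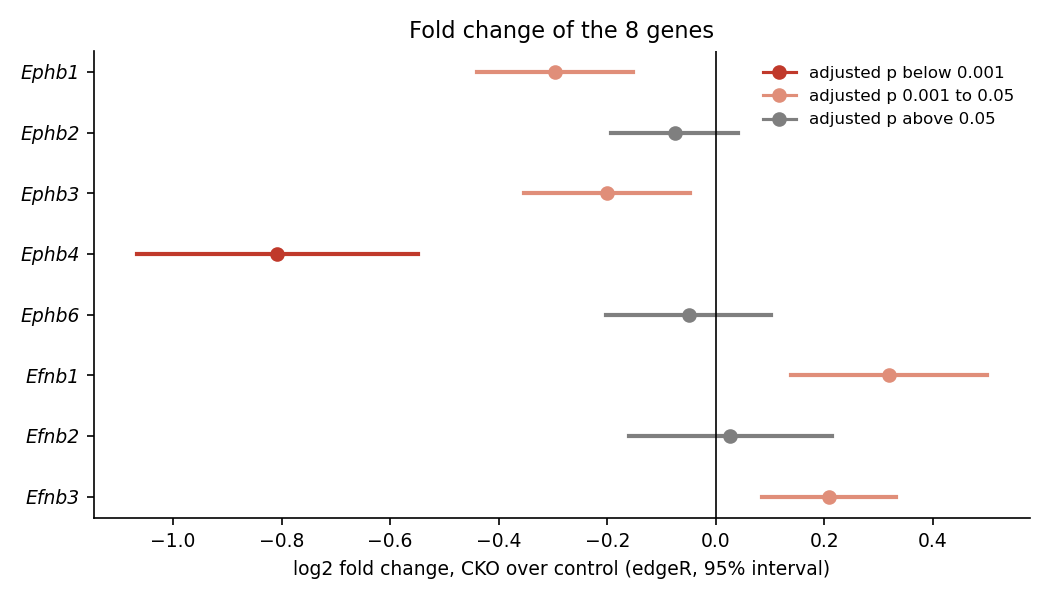
The edgeR log2FC of each gene (x axis, CKO over control) with its 95% interval, colored by adjusted p. The interval of *Ephb4* (-1.07 to -0.55) lies below those of the other 4 receptor genes, and those of *Ephb2*, *Ephb6* and *Efnb2* include 0.

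*Ephb4*, which encodes the receptor best known from venous endothelium, was the gene with the largest difference. It lies on chromosome 5 (ENSMUSG00000029710, 137350109 to 137378669 of GRCm38, plus strand), and its principal transcript has 17 exons. The control embryos, in the order of their replicate numbers here and below, had 521, 467, 418 and 429 normalized counts, and the CKO embryos had 206, 264, 269 and 313. Every CKO sample was below every control, and CKO replicate 1 was the lowest of all. The mean fell from 459 ± 46.3 to 263 ± 43.9 normalized counts (SD, n = 4), a fold change of 0.571 (95% interval 0.477 to 0.683; log2FC -0.81, SE 0.118, edgeR adjusted p = 3.79e-04), which placed it at rank 854 of the 13891 genes by p-value. The call was lost without any 1 of control replicates 1, 2 and 4 and CKO replicates 2 and 3 (edgeR adjusted p = 0.00105 to 0.00172, log2FC -0.84 to -0.74 in those fits), and with the replicate number as a block (adjusted p = 0.00195). Its exons overlap those of *Zan* on the other strand by 33 bp, and *Zan* had at most 8 reads in any sample.

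The ratio of *Ephb4* to *Ephb2* reads within a library does not depend on how libraries are scaled. For every 100 *Ephb2* reads, the control embryos had 7.79, 7.87, 7.01 and 6.999 *Ephb4* reads and the CKO embryos 3.74, 4.37, 4.56 and 5.24. The genotypes did not overlap on this measure either.

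The sequence before the start of *Ephb4* is shown because it was the gene that passed the test, beside those of *Ephb1* and *Efnb1*, which had the next largest differences in each direction. Each run holds the 250 bases upstream of the start in RefSeq (GRCm38.p6), 5′ to 3′ on the gene's strand, with the homeodomain core ATTA in capitals where either strand holds it. They span chr5:137349859-137350108 (plus strand), chr9:102354694-102354943 (minus strand) and chrX:99135811-99136060 (plus strand).
Ephb4: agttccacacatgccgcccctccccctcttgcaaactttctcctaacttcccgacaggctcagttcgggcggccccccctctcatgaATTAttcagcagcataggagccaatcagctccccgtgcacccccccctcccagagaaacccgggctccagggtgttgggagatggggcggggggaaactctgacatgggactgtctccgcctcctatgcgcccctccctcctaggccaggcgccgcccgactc
Ephb1: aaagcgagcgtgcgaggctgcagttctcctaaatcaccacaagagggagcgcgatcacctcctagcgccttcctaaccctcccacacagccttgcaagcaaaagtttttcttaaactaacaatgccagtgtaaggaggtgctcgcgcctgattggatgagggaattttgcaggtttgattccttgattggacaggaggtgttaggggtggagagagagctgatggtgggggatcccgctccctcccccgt
Efnb1: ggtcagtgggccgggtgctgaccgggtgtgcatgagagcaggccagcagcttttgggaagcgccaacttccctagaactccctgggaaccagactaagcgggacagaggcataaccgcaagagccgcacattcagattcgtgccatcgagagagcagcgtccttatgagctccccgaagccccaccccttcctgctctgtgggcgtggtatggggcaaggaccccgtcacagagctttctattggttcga

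A window was held for 7 of the 8 genes, and *Efnb3* was the one without. The ATTA core, searched on both strands, was found once 163 bases before the *Ephb4* start and once 246 bases before the *Ephb3* start and not in the other 5 windows, while 54.9% of all 32851 windows hold it. The longer letters TAATTA, the palindrome that LIM homeodomain proteins can bind and which contains ATTA, were in none of the 7 and in 4.84% of all windows. TAATTG, which also contains the core on its other strand, was in none of the 7 and in 7.17% of all, and AGGTGTGA, a T-box motif, in none and in 1.12%. The 7 windows ran from 54.0% G and C for *Ephb1* to 76.8% for *Ephb6*, all above the median of 52.4% over all windows. These are counts of letters in short windows and not sites of binding.

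Because EphB4 is an endothelial receptor, the 24 genes of an endothelium list were set beside it. Of 18 tested, 3 fell, 1 rose and 14 did not pass (22.2% called, against 8.61% of all genes). The genes that fell were *Kdr*, a VEGF receptor gene (4104 ± 142 to 2931 ± 305 normalized counts, log2FC -0.48), *Dll4*, a Notch ligand gene (1131 ± 50.5 to 668 ± 70.0, log2FC -0.76), and *Cldn5*, a tight junction gene (167 ± 23.6 to 57.6 ± 20.01, log2FC -1.55), with edgeR adjusted p = 2.60e-04, 2.16e-05 and 1.94e-04. *Kdr* lost its call without control replicate 4 (edgeR adjusted p = 0.00115). *Unc5b*, a netrin receptor gene, rose from 335 ± 129 to 902 ± 159.9 normalized counts (log2FC 1.42, edgeR adjusted p = 6.44e-04), and this call was lost without control replicate 2 or 4 or CKO replicate 1, 3 or 4 (adjusted p up to 0.00329). *Kdr* alone made up 52.2% to 67.5% of the summed counts of the list, and *Kdr* and *Dll4* are known to be expressed in neural retina as well.

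The summed counts of the whole list were 6160 to 6619 in controls and 4288 to 5868 in the CKO, without overlap, and without *Kdr* they were 2004 to 2676 and 1810 to 2805, with overlap. Single markers differed in this. *Cldn5* (153 to 202 and 39.6 to 84.3) and *Gja4*, an arterial connexin gene (30.4 to 34.2 and 8.74 to 25.6, log2FC -1.16, edgeR adjusted p = 0.0118), lay wholly lower in the CKO, as did *Gja5*, another connexin gene too low to be tested (7.99 to 22.3 and 1.09 to 6.40). Others overlapped. *Pecam1* had 34.3 to 69.5 normalized counts in controls and 38.8 to 90.7 in the CKO, and *Cdh5*, VE-cadherin, had 37.7 to 109.8 and 27.0 to 111. The sum of *Pecam1*, *Cdh5*, *Tie1*, *Emcn*, *Plvap* and *Tek* was 340.3, 167, 132 and 227 normalized counts in the control embryos and 129, 149.9, 270.2 and 409.8 in the CKO embryos. *Ephb4* ran in the same order as this sum over the 4 CKO samples. Among the controls it was highest and lowest where the sum was, but control replicates 2 and 4 came in the opposite order. CKO replicate 4 had the highest sum of all 8 samples and, at 313 normalized counts, less *Ephb4* than any control. No marker of the list was at 0 throughout. The 6 genes of the sum leave out *Kdr*, *Dll4*, *Cldn5*, *Gja4* and *Gja5*, which lay wholly lower in the CKO, and *Unc5b*, which rose. *Gja5*, *Pecam1*, *Cdh5* and the 6 genes of the sum were chosen after their values had been seen, and the part of endothelium in the *Ephb4* result was not tested. Of the 14 RPC genes 8 fell and 1 rose in the same samples, and the part of RPCs in the *Ephb4* result was not tested either.

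**Figure D3:**
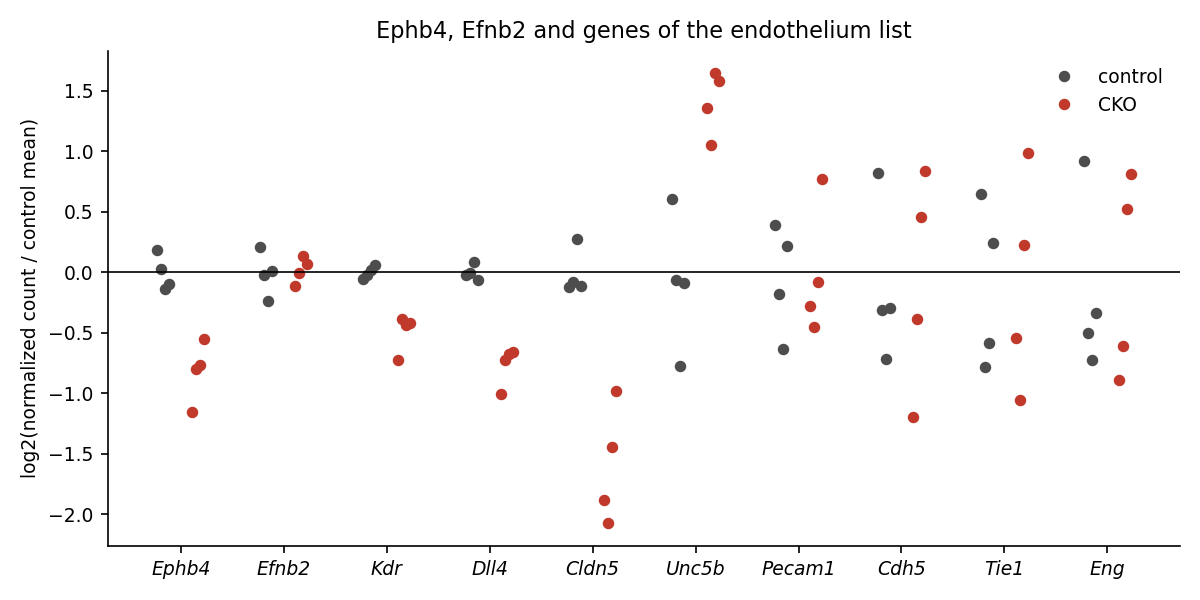
Log2 of each sample's normalized count over the control mean (y axis) for *Ephb4*, *Efnb2* and 8 genes of the endothelium list chosen for display after their values were seen, 4 control samples in gray and 4 CKO samples in red for each. *Ephb4*, *Kdr*, *Dll4* and *Cldn5* are lower in all 4 CKO samples than in any control, *Unc5b* is higher, and *Pecam1*, *Cdh5*, *Tie1* and *Eng* spread over the same range in both genotypes.

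*Ephb1*, the receptor gene of the ipsilateral projection (ENSMUSG00000032537, chromosome 9, 101922128 to 102354693 of GRCm38, minus strand), had 608, 662, 670.2 and 647 normalized counts in the control embryos. The CKO replicates had 558, 543, 509.8 and 491, all below the lowest control. The means were 647 ± 27.6 and 525 ± 30.4 (SD, n = 4), a fold change of 0.814 (95% interval 0.737 to 0.8995) that did not pass at 0.001 (log2FC -0.30, SE 0.0654, edgeR adjusted p = 0.00495). Its adjusted p lay between 0.00141 and 0.0215 over 18 alternative fits, and its log2FC between -0.38 and -0.26. Its exons overlap by 152 bp those of *Gm26846* on the other strand, which had at most 3 reads in any sample. *Ephb1* is a gene of RGCs, whose marker genes had higher sums in the same CKO samples, and the part of that difference was not tested.

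*Ephb2*, the most abundant of the 8 genes by reads (ENSMUSG00000028664, chromosome 4, 136647539 to 136835988, minus strand), had 6681, 5928, 5958 and 6134 normalized counts in controls and 5508, 6027, 5902 and 5971 in the CKO. The genotypes overlapped, and the extremes were the female replicates 1 of each genotype. The log2FC was -0.08 (95% interval -0.19 to 0.04, edgeR adjusted p = 0.303), so a change beyond a factor of 0.875 or 1.03 lies outside the interval. In the 5 male samples alone the log2FC was 9.96e-04.

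*Ephb3*, which shares the ventral pattern of *Ephb2* (ENSMUSG00000005958, chromosome 16, 21204755 to 21223305, plus strand), had 619, 559, 669 and 584 normalized counts in controls and 527, 523, 498 and 563 in the CKO. CKO replicate 4 lay above control replicate 2, so the groups overlapped by that pair. The means were 608 ± 47.6 and 528 ± 27.1 (fold change 0.870, 95% interval 0.782 to 0.968, edgeR adjusted p = 0.0462), and the adjusted p lay between 0.0300 and 0.148 over 18 alternative fits.

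*Ephb6* encodes a receptor that is known to lack kinase activity (ENSMUSG00000029869, chromosome 6, 41605482 to 41620509, plus strand). It had 403 to 441 normalized counts in controls and 389 to 441 in the CKO. The samples of the genotypes were mixed over this range. Its log2FC of -0.05 had a 95% interval from -0.20 to 0.10 (edgeR adjusted p = 0.616).

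*Efnb1*, the X-linked ligand gene (ENSMUSG00000031217, chromosome X, 99136130 to 99148991, plus strand), had 417, 449, 424 and 436 normalized counts in controls and 452, 566, 594 and 542 in the CKO. CKO replicate 1 was just above the highest control, and the other CKO samples were well above it. The means were 431 ± 14.2 and 539 ± 61.5 (SD, n = 4), a fold change of 1.25 (95% interval 1.10 to 1.41) that did not pass at 0.001 (log2FC 0.32, SE 0.0827, edgeR adjusted p = 0.0118). Without both control replicate 3 and CKO replicate 1, the libraries that stood apart, its log2FC was 0.38 and it passed (edgeR adjusted p = 6.23e-04). That fit was added after the data were seen and called more genes in all than the main fit.

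*Efnb2*, the dorsal and arterial ligand gene (ENSMUSG00000001300, chromosome 8, 8617434 to 8661242, minus strand), had 3032, 2589.9, 2224 and 2652 normalized counts in controls and 2432, 2613, 2889 and 2759 in the CKO. The controls alone covered the whole range of the CKO samples. Its log2FC was 0.03 (95% interval -0.16 to 0.21, edgeR adjusted p = 0.837), and it turned negative when control replicate 3 (-0.04) or CKO replicate 3 (-0.01) was left out. *Efnb2* thus had no detectable difference where its receptor gene *Ephb4* fell, and the difference between these log2FC values was not tested.

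*Efnb3*, whose product is known as a midline barrier to axons in the brain and spinal cord (ENSMUSG00000003934, chromosome 11, 69554092 to 69560205, minus strand), had 999.8, 1036, 1142 and 1006 normalized counts in controls and 1142, 1188, 1253 and 1243 in the CKO. Control replicate 3 and CKO replicate 1 were nearly equal, so the groups touched without overlapping. The means were 1046 ± 65.9 and 1207 ± 51.4 (fold change 1.16, 95% interval 1.06 to 1.26, log2FC 0.21, edgeR adjusted p = 0.0145). Without those same libraries the log2FC was 0.27 and it passed (edgeR adjusted p = 5.25e-04). *Efnb1* and *Efnb3* made that fit call 3 of the 8 genes. It called 2104 of the 13678 genes it tested, against 1196 of 13891 in the main fit.

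Sex differed between the groups, so the male and female embryos were also read separately, as values without a test. *Ephb4* was lower in the CKO in both, with 418 and 467 normalized counts in the 2 male controls against 264 to 313 in 3 male CKO embryos, and 429 and 521 in the 2 female controls against 206 in the female CKO embryo. *Efnb1* had 424 and 449 in male controls and 542 to 594 in male CKO embryos, but 417 and 436 in female controls and 452 in the female CKO embryo. *Efnb2* had a higher mean in the CKO among males (2407 and 2754) and a lower value among females (2842 and 2432). With sex as a covariate *Ephb4* still passed (log2FC -0.84, edgeR adjusted p = 4.58e-04), and in the 5 male samples alone it did not (log2FC -0.66, adjusted p = 0.00394).

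To compare genes with each other, normalized counts were divided by the length of all annotated exons of the gene. In controls *Ephb2* had the highest level, 489.8 ± 27.7 normalized counts per kilobase (SD, n = 4), followed by *Efnb2* with 383 ± 48.3 and *Efnb3* with 329 ± 20.7. *Efnb2* and *Efnb3* overlapped across samples, whereas *Ephb2* lay above both. *Efnb1* followed at 125 ± 4.11 per kilobase, below these 3 and above the rest. *Ephb6* (113 ± 4.82), *Ephb4* (98.8 ± 9.97), *Ephb1* (92.4 ± 3.94) and *Ephb3* (91.5 ± 7.16) came last, and each overlapped its neighbor in this order. In the CKO the first 5 genes held the same places, and *Ephb4* (56.6 ± 9.46 per kilobase) went to the last place, below all samples of *Ephb1* (75.0 ± 4.35) and *Ephb3* (79.5 ± 4.07). Divided by the longest transcript instead, *Ephb1* moved to the fourth place in controls, *Efnb2* to the first in the CKO, and *Ephb4* was last in both genotypes, so the order rests on the length used.

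**Figure D4:**
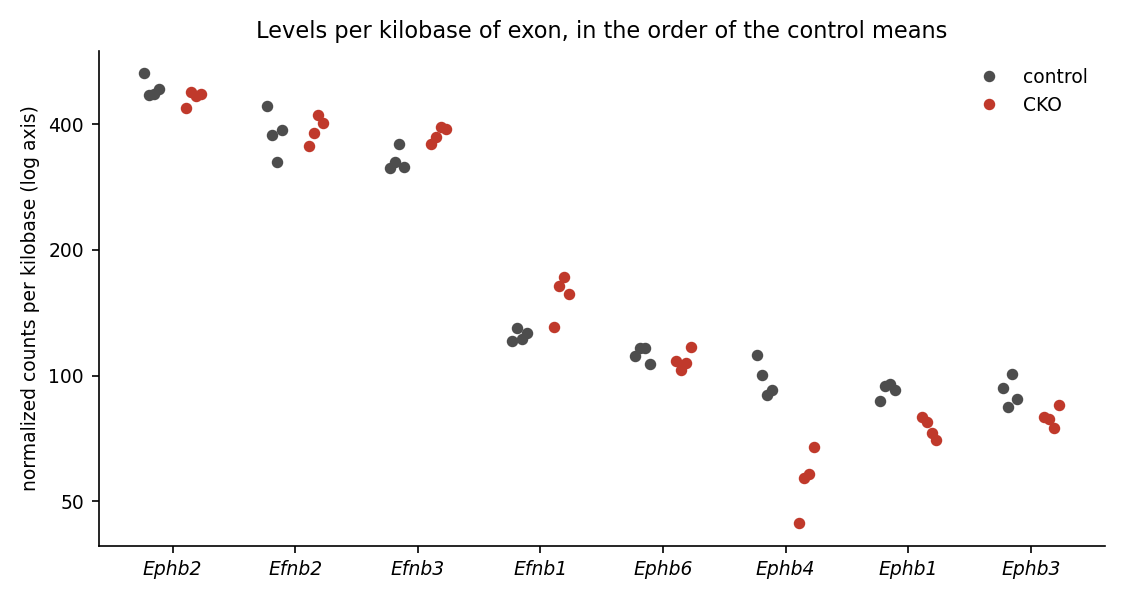
Normalized counts per kilobase of exon (y axis, log scale) of the 8 genes in each control (gray) and CKO (red) sample, ordered by the control mean. *Ephb2*, *Efnb2* and *Efnb3* lie above 300 in all samples and the other 5 genes below 200, with *Ephb4* in the CKO the lowest.

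Summed per kilobase, the 5 receptor genes gave 866 to 933 in controls and 749 to 813 in the CKO, and the 3 ephrin-B genes gave 806 to 877 and 845 to 987. The receptor sums did not overlap between genotypes, and the ligand sums did. The ratio of ligand to receptor sum was 0.940, 0.962, 0.920 and 0.957 in the control embryos and 1.13, 1.16, 1.26 and 1.17 in the CKO embryos. By this measure the receptor sum was the larger in every control and the ligand sum in every CKO sample. With the longest transcript as the length the ratio was 0.912 to 0.976 and 1.13 to 1.27. Its distance from 1 rests on the lengths used, so no absolute excess of receptor or ligand RNA is read from it. This ratio is free of library scaling. *Ephb2* made up 54.0% to 56.8% of the receptor sum in controls and 58.3% to 60.2% in the CKO, while *Ephb4* made up 10.3% to 12.02% and 5.92% to 8.29%. *Efnb1* made up 13.8% to 15.6% of the ligand sum in controls and 15.504% to 17.9% in the CKO. No p is given for these sums, since the genes were chosen with results known.

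**Figure D5:**
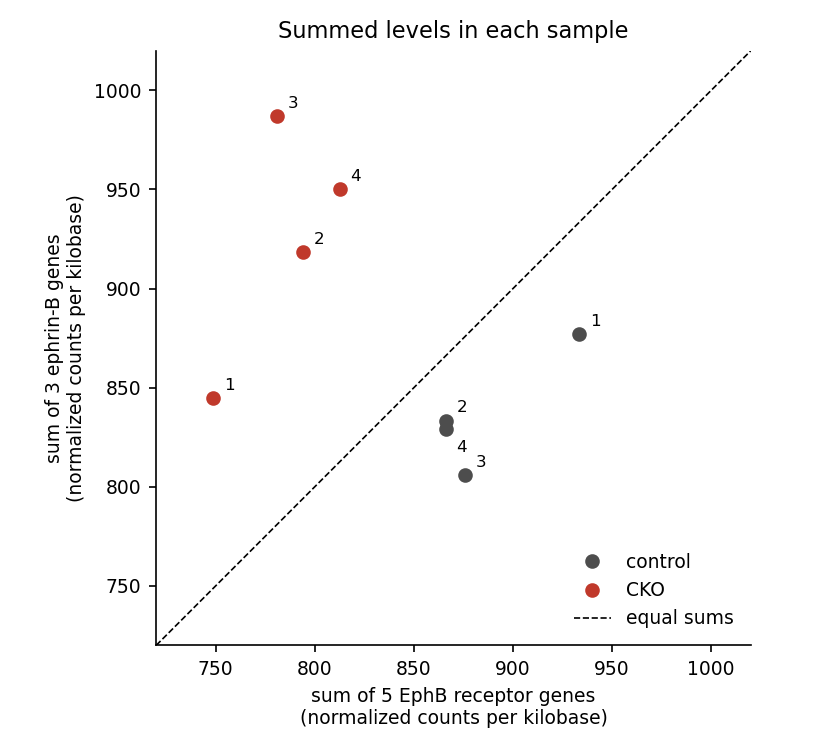
Sum of the 3 ephrin-B genes (y axis) against the sum of the 5 EphB genes (x axis), both in normalized counts per kilobase, for each sample with its replicate number. Both axes start at 720. The 4 controls (gray) lie below the line of equal sums and the 4 CKO samples (red) above it, with ratios of 0.920 to 0.962 and 1.13 to 1.26.

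Genes that carry the forward signal from EphB receptors into the cell, from adaptors and GTPase exchange factors to kinases of the actin cytoskeleton, were counted from a list of 35, all tested. Of these 4 rose, 1 fell and 30 did not pass (14.3% called, against 8.61% of all genes), with a median log2FC of 0.07. The exchange factor genes *Vav2* and *Vav3* rose from 1199.8 ± 39.6 to 1522 ± 77.5 and from 653 ± 39.1 to 860.1 ± 37.0 normalized counts (log2FC 0.35 and 0.40, edgeR adjusted p = 5.79e-04 and 4.45e-04). *Pak1* and *Pak3*, kinase genes downstream of Rac and Cdc42, rose from 1877 ± 128 to 2432 ± 126 and from 2514 ± 219.6 to 3502 ± 146 (log2FC 0.38 and 0.48, edgeR adjusted p = 5.33e-04 and 2.36e-04). *Grb10*, an adaptor gene that is also imprinted and acts on insulin receptors, fell from 15074 ± 1820.3 to 8745 ± 162 normalized counts (log2FC -0.78, edgeR adjusted p = 3.26e-05). *Grb10* passed without any 1 library, whereas *Pak3* lost its call without control replicate 1 or CKO replicate 2 or 4, and *Vav2*, *Vav3* and *Pak1* lost theirs in 6, 5 and 7 of the 8 such fits (adjusted p up to 0.00316). The count was 1, 2, 8 and 3 without control replicates 1 to 4, and 1, 2 and 1 without CKO replicates 2 to 4. Over all genes, where the main fit called 1196, these fits called 713, 756, 1553 and 748, and 735, 821 and 686. The forward count was 14 by DESeq2, which called 17.2% of all genes, and 2 with the replicate block, which called 676 genes in all. Of the 21 RGC genes 12 rose in the same samples, and their part in these rises was not tested.

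A list of 20 genes, of which 17 were tested, was drawn up for partners of the ephrin-B tail and enzymes that shed ephrin-Bs or EphBs. Whether each product, that of *Pdzrn3* included, acts on ephrin-Bs in the retina was not examined. *Pdzrn3*, which encodes a ubiquitin ligase with PDZ domains, fell from 1244 ± 28.4 to 495 ± 40.04 normalized counts (log2FC -1.33, edgeR adjusted p = 1.32e-07) and passed without any 1 library. *Grip1*, a PDZ scaffold gene that binds ephrin-Bs and glutamate receptors, rose from 1379.6 ± 34.2 to 1698 ± 77.6 (log2FC 0.30, edgeR adjusted p = 5.80e-04). It lost its call without control replicate 1, 2 or 4 or CKO replicate 2, 3 or 4 (adjusted p up to 0.00343), and the count was then 1. The other 15 did not pass (11.8% called, against 8.61% of all genes), and the median log2FC was -0.07. *Stat3* (log2FC 0.29, edgeR adjusted p = 0.00258), *Rgs3* (-0.24, adjusted p = 0.0107) and *Grip2* (0.90, adjusted p = 0.0145) had the next smallest p-values. *Adam10*, for a metalloprotease that cuts ephrins, was picked after its values were seen and had a log2FC of 0.17 (95% interval 0.06 to 0.27).

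Of 20 regulators of position in the retina, which include the genes that set the dorsoventral patterns of EphBs and ephrin-Bs, 8 fell, 1 rose and 11 did not pass (median log2FC -0.85). That was 45% called, against 8.61% of all genes. *Tbx5*, the dorsal factor gene upstream of *Efnb1* and *Efnb2*, had 202 ± 64.1 and 275 ± 16.5 normalized counts (log2FC 0.44, 95% interval 0.06 to 0.83, edgeR adjusted p = 0.0729), and *Vax2*, the ventral factor gene upstream of *Ephb2* and *Ephb3*, had 796 ± 132 and 691 ± 72.6 (log2FC -0.20, 95% interval -0.45 to 0.04, adjusted p = 0.189). *Zic2*, upstream of *Ephb1* in ventrotemporal RGCs, had 1341 ± 108 and 1544 ± 87.2 (log2FC 0.20, 95% interval 0.06 to 0.35, adjusted p = 0.0311). None of these 3 passed. The dorsal genes *Tbx2*, *Aldh1a1* and *Bmp4* had lower mean levels in the CKO without passing, with log2FC values of -0.25, -1.83 and -3.30 (edgeR adjusted p = 0.00762, 0.00781 and 0.00745). Samples overlapped for *Aldh1a1* and *Bmp4*, by control replicate 3 alone (821 and 2.28 normalized counts, against up to 1362 and 6.89 in the CKO). These 6 regulators, from *Tbx5* to *Bmp4*, were singled out after their values were seen. *Tbx3*, another dorsal gene of the list, did pass. The genes that fell were *Aldh1a3* (log2FC -5.05), *Cyp26c1* (-2.06), *Pax2* (-1.72), *Cyp26a1* (-1.68), *Foxd1* (-1.24), *Tbx3* (-1.15), *Chrdl1* (-0.95) and *Hmx1* (-0.74), and *Nr2f2* rose (log2FC 1.11). *Chrdl1* alone lost its call without 1 library, in 5 of 8 fits (edgeR adjusted p up to 0.00159).

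The A class, in which the same kinds of receptor bind ephrins held by a lipid anchor, had 1 call among 13 genes tested (7.69%), close to the 8.61% of all genes and to the 1 in 8 of the B class. *Epha2* fell from 429.6 ± 30.1 to 253 ± 34.8 normalized counts (log2FC -0.76, 95% interval -0.98 to -0.55, edgeR adjusted p = 1.76e-04). No A class gene rose in this edgeR fit or by limma voom. At an unadjusted edgeR p below 0.05, which 43.6% of all genes reached, 5 were higher and 3 lower. With other settings 3 rose by DESeq2 (which called 17.2% of all genes), 3 by edgeR with no filter, 1 with sex as a covariate and 1 without control replicate 3 and CKO replicate 1. *Efna5*, which can also bind EphB2, had 781 ± 73.2 and 1002 ± 54.8 (log2FC 0.36, edgeR adjusted p = 0.00360), and *Epha4*, which can also bind ephrin-Bs, had 489 ± 44.0 and 404 ± 55.8 (log2FC -0.28, edgeR adjusted p = 0.0559) and was named after its values were seen. *Epha6*, *Epha8* and *Epha5* had log2FC values of 0.76, 0.44 and 0.21 (edgeR adjusted p = 0.00445, 0.00465 and 0.0328).

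Among all genes tested, those whose centred log2 profile over the 8 samples was nearest to that of *Ephb4* were *Prps2*, a gene of nucleotide synthesis (root mean square difference 0.0827), *Ptbp1*, a splicing repressor gene of progenitors (0.0991), and *Kank2* (0.101). They had log2FC values of -0.80, -0.77 and -0.94. The measure is a likeness of levels over 8 samples, and much of it is the difference between genotypes that these genes share.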

How the data were processed

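The authors aligned 50 cycle single-end reads of poly(A) libraries (HiSeq 2000) to mm10 with TopHat 2 and deposited raw HTSeq counts of reads per gene, which are the values used. For these steps, further tool versions, strand setting and annotation release were not stated, and the kit does not keep strand. Coordinates, exons and lengths come from GENCODE M21 (GRCm38, the assembly of mm10), matched by gene ID (28232 of 28432). Upstream windows are from RefSeq.

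Tests used edgeR 4.0.16 in R 4.3.3 (glmQLFit, TMM, genotype as the only term) on all genes that reached 20 normalized counts in 3 or more samples, with Benjamini-Hochberg adjustment over all of them and the study's cutoff of 0.001, and were tested on simulated data. SE is the log2FC divided by the square root of F. Samples were grouped by the labels, 4 and 4, and each is a separate embryo. Replicates differed by more than sampling noise (chi-square per gene 3.56 to 20.8). Litter and day are not given per sample. Alternatives were DESeq2 1.42.0, limma 3.58.1 voom, other size factors and filters, a cutoff of 0.05, a replicate block, sex as a covariate and leaving out each sample in turn. Fits of 6 samples (without control replicate 3 and CKO replicate 1) and of the 5 males were added after seeing the data. Members, lists and rules were chosen with earlier results of these data known. Named were the 8 genes, the 5 smallest p-values and any call of each list, and the 3 nearest genes of a called member. *Afdn* was matched under an older symbol. Pericyte, mesenchyme, pigment epithelium, lens, blood and macrophage lists were counted only for tissue content. One gene of the reverse signaling list is not reported here by name.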

Additional observations from a re-analysis of the deposited data

Results flagged for a closer look

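None of the 8 EphB and ephrin-B genes had a sample standing apart from its group by Dixon's test at 95%. Among 74 groups of 4 (each named gene in each genotype) 6 did, and chance gives about 1 in 20. Control replicate 3 was high for *Cldn5* (202 normalized counts) and low for *Epha6* (163). CKO replicate 1 was high for *Epha6* (518) and low for *Kdr* (2479) and *Stat3* (566). Control replicate 4 was high for *Grip1* (1431 normalized counts).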

How the results depend on the processing

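In all, 1196 genes passed. The count was 4619 at a cutoff of 0.05, 2390 by DESeq2, 2055 with no filter, 676 with the replicate block, 2104 in the 6 samples without control replicate 3 and CKO replicate 1, 307 in the 5 males, and 686 to 1553 with 1 library left out. Of the 8 EphB and ephrin-B genes, 1 passed, against 5 at 0.05, 0 with the block, 3 in the 6 samples, 0 in the males and 0 to 1 with a library left out. At 0.05 the log2FC of *Ephb1* (-0.30), *Ephb3* (-0.20), *Efnb1* (0.32) and *Efnb3* (0.21) passed. *Ephb4* missed the cutoff with the block (-0.81) and in the males (-0.66), and had -0.90 to -0.71 with a library left out. In the 6 samples *Efnb1* (0.38) and *Efnb3* (0.27) passed and *Efnb2* turned to -0.00640. *Efnb2* had -0.04 to 0.10 with a library left out, and turned sign without control replicate 3 (-0.0443) or CKO replicate 3 (-0.0114). *Ephb2* turned to 9.96e-04 in the males. The A class count of 1 was 5 at 0.05, 4 by DESeq2, 4 with no filter, 2 with sex as a covariate, 2 in the 6 samples and 0 in the males. The forward count of 5 was 18 at 0.05, 14 by DESeq2, 9 with no filter, 2 with the block, 13 in the 6 samples, 1 in the males and 1 to 8 with a library left out. The reverse count of 2 was 10 at 0.05, 1 with the block, 1 with sex, 4 in the 6 samples, 1 in the males and 1 to 3 with a library left out. The position count of 9 was 14 at 0.05. The endothelium count of 4 was 1 in the males and 2 to 4 with a library left out. The cause of these moves was not tested. Replicate numbers do not pair the embryos (r of same-numbered deviations -0.15 to 0.14, and 3 of 8 samples correlated best with their own number), so the block removes degrees of freedom for a shared number only.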
